A study of Mus musculus with 2 samples.

Results

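The genes described here are the cap'n'collar (CNC) transcription factor genes Nfe2, Nfe2l1, Nfe2l2 and Nfe2l3, the small MAF genes Mafg, Mafk and Maff, the repressor genes Bach1 and Bach2, and Keap1. They were chosen by name, as 10 of the 43346 Ensembl genes in the tables, and no threshold on a measured value was used. Paired-end RNA-seq of polyadenylated RNA was made from G1E-ER4, a mouse erythroid line that is immortalized. G1E cells carry no working Gata1, and the G1E-ER4 clone was given GATA1 joined to the hormone-binding part of an estrogen receptor, so every library here shares that genotype. Both libraries are labelled as cells with Gata1 restored that were induced to differentiate with estradiol (E2), and the labels give no dose or time. The 2 libraries, replicates 1 and 2, make up 1 group, so no condition can be compared. They are labelled as biological replicates but cite 1 biosample, so the spread between them may be technical.

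CNC proteins are basic leucine zipper factors that bind DNA as pairs with a small MAF protein. Small MAF proteins lack an activation domain, so pairs of small MAFs repress, while CNC and small MAF pairs activate, and BACH proteins compete for the same partners and sites as repressors that let go when haem binds them. NFE2 was found as the factor that binds the globin locus control region and is also needed to form platelets. NRF2, the product of Nfe2l2, drives antioxidant genes and is held back by KEAP1, which brings it to a ubiquitin ligase. NRF1, the product of Nfe2l1, sits in the endoplasmic reticulum membrane and drives proteasome genes once it is released and cut.

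The coding sequences of the 3 small MAF genes are shown first because reads had to be told apart between close relatives. Over aligned coding bases, Mafk and Mafg were 73.0% identical, Mafk and Maff 72.4%, and Mafg and Maff 70.2%. Their most alike stretch of 60 bases runs over codons 52 to 71 and holds 51 bases that are the same in all 3 genes. The sequences come from the GENCODE M21 transcripts, and capitals mark the bases that are not the same in all 3.
Mafk: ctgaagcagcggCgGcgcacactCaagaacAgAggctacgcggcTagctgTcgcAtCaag
Mafg: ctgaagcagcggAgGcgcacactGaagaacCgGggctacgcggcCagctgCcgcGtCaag
Maff: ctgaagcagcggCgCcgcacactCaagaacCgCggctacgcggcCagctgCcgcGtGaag
The longest exact run was 23 bases between Mafk and Mafg, 17 between Mafk and Maff and 23 between Mafg and Maff. No stretch of 31 bases was shared between any of the 10 genes.

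A second sequence matters for Nfe2l1, whose transcript models differ in where the coding sequence begins. The first 288 codons of the long model Nfe2l1-201, which has 741 codons, are missing from Nfe2l1-212, which has 453. The shorter coding sequence starts in frame at codon 289 and reaches the same end. The part lacking in Nfe2l1-212 is the amino-terminal region, where NRF1 is known to carry its membrane anchor. Codons 279 to 298 of Nfe2l1-201 are shown with the start codon of Nfe2l1-212 in capitals.
Nfe2l1: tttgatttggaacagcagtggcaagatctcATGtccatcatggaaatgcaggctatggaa

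The estimated counts came to 68901065 for replicate 1 and 51923117 for replicate 2. Levels between genes are given as TPM, a scale in which each transcript is divided by its length, and detected means at least 1 TPM in each library. Erythroid partner genes were read beside the label of an erythroid line. With 1 group, their detection does not test induction by estradiol. Gata1, whose reads from the transgene and from its own locus are not separated, stood at 1498 and 2430 TPM in replicates 1 and 2, and all 6 partners listed were detected. Alas2, the haem synthesis enzyme of red cells, was low for an erythroid gene, at 1.44 and 2.00 TPM.

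Of the 10 genes 8 were detected, against 39.0% of 21474 protein-coding genes. The median of all 10, with the 2 genes at 0 included, was 20.985 TPM in replicate 1 and 27.615 in replicate 2. Over all 21474 protein-coding genes the median was 0.02 TPM in each library. The 8376 detected protein-coding genes had a median of 20.3 TPM in each library, but that set leaves out undetected genes, so it is not a like comparison. Nfe2 was the most abundant, followed by Keap1, then by Mafg, Mafk and Nfe2l1 at similar levels, then Nfe2l2, Bach1 and Maff. Nfe2l3 and Bach2 had no count in either library. In whole cultures, fewer cells that express a gene and less RNA per cell cannot be told apart.

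Among the CNC activators, Nfe2 (ENSMUSG00000058794.8), on the minus strand of chromosome 15 from 103248212 to 103258403 in mm10, stood at 164.03 TPM in replicate 1 and 149.44 in replicate 2. The mean was 157 ± 10.3 TPM (SD, n = 2), at rank 938 among protein-coding genes, and 11.2% of detected protein-coding genes were at or above it. Nfe2 had 15146 and 10401 estimated counts. Nfe2l1 (ENSMUSG00000038615.13; chromosome 11, minus strand, 96817414 to 96829968) stood at 30.45 and 44.06 TPM, a mean of 37.3 ± 9.62 TPM (SD, n = 2). This was the widest spread in TPM relative to the mean among the 8 detected genes. Nfe2l2 (ENSMUSG00000015839.6; chromosome 2, minus strand, 75675513 to 75704641) stood at 11.52 and 14.00 TPM, a mean of 12.8 ± 1.75 TPM (SD, n = 2). The ranges of the 3 genes did not overlap.

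Nfe2 took most of the CNC activator transcripts. The summed level of Nfe2, Nfe2l1, Nfe2l2 and Nfe2l3 was 206 TPM in replicate 1 and 207.5 in replicate 2. Nfe2 made up 79.6% of that sum in replicate 1 and 72.0% in replicate 2, Nfe2l1 14.8% and 21.2%, and Nfe2l2 5.59% and 6.75%. In TPM, Nfe2 stood 5.39 and 3.39 times above Nfe2l1, and 14.2 and 10.7 times above Nfe2l2. Nfe2l1 stood 2.64 and 3.15 times above Nfe2l2.

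Nfe2l3 (ENSMUSG00000029832.12; chromosome 6, plus strand, 51432670 to 51458768), which encodes the least studied CNC factor NRF3, was not detectable at this depth. A count of 0 allows up to 3 counts, or 4.35e-06% of counts in replicate 1 and 5.78e-06% in replicate 2. The posterior mean TPM in the same tables, which is above 0 without any count, was 0.05 and 0.06 for Nfe2l3. At that floor of 3 counts per library Nfe2l3 would stand at 0.0366 and 0.0485 TPM. In TPM from expected counts, Nfe2 was thus at least 4487-fold higher in replicate 1 and at least 3079-fold higher in replicate 2. The posterior mean TPM of Nfe2l3 lies above that floor, so these bounds hold for expected counts only. Floors and intervals of this kind cover counting error only.

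**Figure D1:**
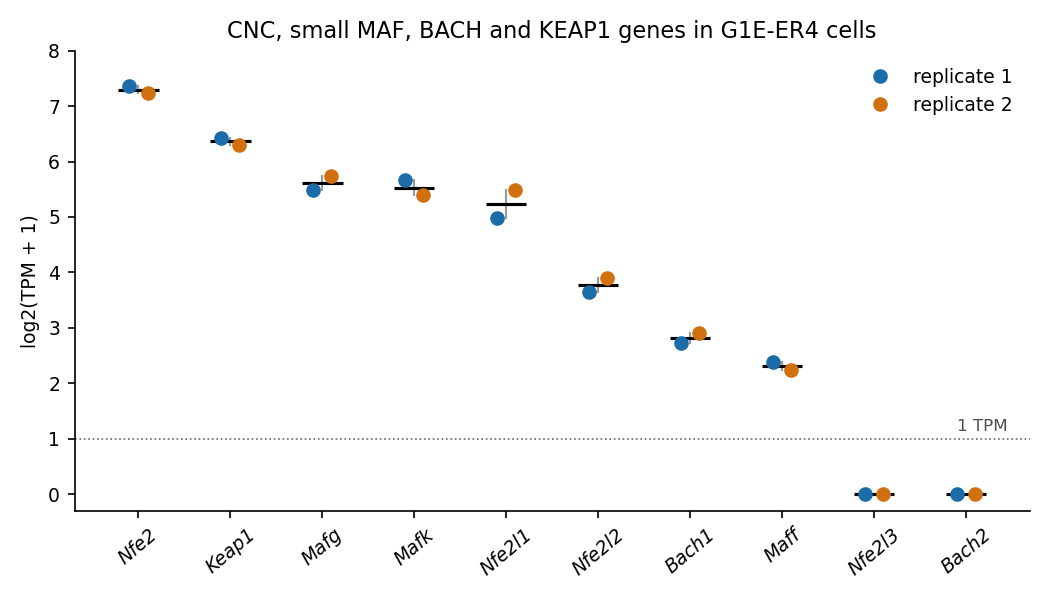
Level of each gene as log2(TPM + 1) on the vertical axis, with 1 point for each library, a horizontal bar at the mean of both points and a dotted line at 1 TPM. Nfe2 is highest at 157 TPM on average, Mafg, Mafk and Nfe2l1 lie close together, and Nfe2l3 and Bach2 are at 0.

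The small MAF partners were led by Mafg and Mafk. Mafg (ENSMUSG00000051510.9; chromosome 11, minus strand, 120625117 to 120633600) stood at 43.98 and 52.24 TPM, a mean of 48.1 ± 5.84 TPM (SD, n = 2). Mafk (ENSMUSG00000018143.6; chromosome 5, plus strand, 139791513 to 139802653), which encodes the small MAF subunit first purified with NFE2, stood at 49.61 and 41.23 TPM, a mean of 45.4 ± 5.93 TPM (SD, n = 2). Their ranges overlapped and their order turned between the libraries, with Mafk over Mafg at 1.13 in replicate 1 and 0.789 in replicate 2. Maff (ENSMUSG00000042622.9; chromosome 15, plus strand, 79346621 to 79359076), the small MAF known for its response to stress, stood far lower at 4.19 and 3.71 TPM, a mean of 3.95 ± 0.339 TPM (SD, n = 2). Mafg stood 10.5 and 14.1 times above Maff, and Mafk 11.8 and 11.1 times.

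Although the shares of Mafk and Mafg moved, their sum with Maff was close in both libraries, at 97.78 and 97.18 TPM. That sum includes the short model Mafg-203 at 1.12 and 10.58 TPM, and its closeness depends on that model. Mafk made up 50.7% and 42.4% of it, Mafg 45.0% and 53.8%, and Maff 4.29% and 3.82%. The transcripts of all CNC and BACH genes summed to 211.61 and 214.02 TPM, which is 2.16 and 2.20 times the small MAF sum. These are levels of mRNA, and protein was not measured.

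Bach1 was the only BACH gene with counts. Bach1 (ENSMUSG00000025612.5; chromosome 16, plus strand, 87698945 to 87733346), the haem-sensing repressor, stood at 5.61 and 6.52 TPM, with an SD of 0.643 TPM (n = 2), from 1859 and 1664 counts. Nfe2 stood 29.2 and 22.9 times above it and Nfe2l2 2.05 and 2.15 times, and Bach1 made up 2.65% and 3.05% of the CNC and BACH sum. Bach2 (ENSMUSG00000040270.12; chromosome 4, plus strand, 32238804 to 32586108), best known for its role in B cells, had no count. Its floor of 3 counts per library equals 0.0162 and 0.0215 TPM. In TPM from expected counts, Bach1 was thus at least 347-fold higher in replicate 1 and at least 303-fold higher in replicate 2. The posterior mean TPM of Bach2, with no count behind it, was 0.27 and 0.35 and lies above that floor, so these bounds hold for expected counts only.

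Keap1 (ENSMUSG00000003308.10; chromosome 9, minus strand, 21229730 to 21239361), whose product senses electrophiles and holds NRF2, stood at 84.96 and 78.18 TPM, a mean of 81.6 ± 4.79 TPM (SD, n = 2). It was second only to Nfe2 among the 10 genes, and Nfe2 stood 1.93 and 1.91 times above it. Keap1 stood 7.38 and 5.58 times above Nfe2l2, the transcript of the factor it holds back. In the order of levels, 6 of the 8 neighbouring pairs, the last being Maff and Nfe2l3, had ranges that did not overlap. Mafg overlapped with Mafk, and Mafk with Nfe2l1.

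Levels were also split by transcript model, and the split of reads between overlapping models is an estimate. The tables give each model's share of its gene's TPM in percent. All 8 genes with counts had the same leading model in both libraries, against 83.2% of 6302 detected protein-coding genes with more than 1 model. For Nfe2l1 the lead in replicate 2 was narrow, with Nfe2l1-201 at 35.91% and Nfe2l1-212 at 35.24%. The leading share was 90% or more in both libraries for 4 of the 8 genes, against a background of 25.4%. Nfe2-201, with 373 codons, held 99.31% and 99.61% of Nfe2, although 10 models are annotated. Mafk-201, with 156 codons, held 90.51% and 92.95%, Maff-201, also 156 codons, 98.52% and 94.58%, and Bach1-201, with 739 codons, 96.1% and 99.13%.

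Keap1 was split between models that encode the same protein. Keap1-205 held 58.39% and 60.11% and Keap1-202 29.49% and 29.3%, and each has 624 codons. Nfe2l2-201, the coding model with 597 codons, held 80.33% and 88.69%. The rest of Nfe2l2 was assigned to Nfe2l2-202, a model annotated as a processed transcript with no coding sequence, at 19.67% and 11.31%.

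A share moved by 10 or more percentage points between the libraries in 2 of the 8 genes, Nfe2l1 and Mafg, against a background of 43.2%. In Nfe2l1 the long model Nfe2l1-201 stood at 16.04 and 15.82 TPM, nearly level between the libraries. Nfe2l1-212, which lacks the amino-terminal codons, stood at 11.27 and 15.52 TPM. Nfe2l1-205, a model of 851 bases with the same start as Nfe2l1-212, had no count in replicate 1 and 234.34 in replicate 2, or 7.40 TPM. Its annotated coding sequence has 148 codons and does not reach the end of the long one. All exons of Nfe2l1-205 lie within those of Nfe2l1-212, so the split of reads between these models is an estimate. As shares, Nfe2l1-201 went from 52.67% to 35.91%, Nfe2l1-212 from 37.02% to 35.24% and Nfe2l1-205 from 0 to 16.8%.

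**Figure D2:**
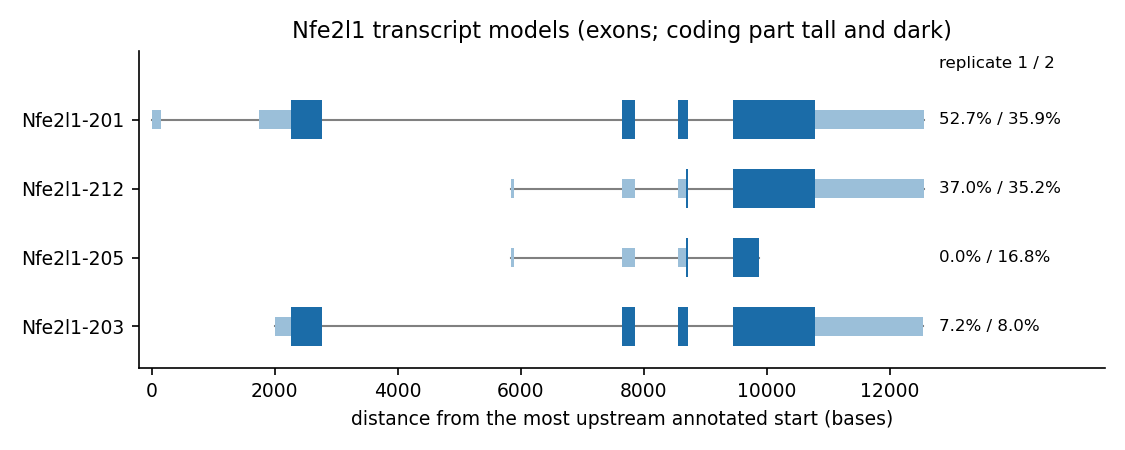
Exons of 4 Nfe2l1 models by distance in bases from the most upstream annotated start, with coding parts tall and dark, and the share of the gene's TPM in replicates 1 and 2 at the right. Nfe2l1-212 and Nfe2l1-205 begin within the gene, and the share of Nfe2l1-205 is 0 in replicate 1 and 16.8% in replicate 2.

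By annotated start, Nfe2l1 models of the most upstream group summed to 16.97 and 17.11 TPM. The group whose starts lie from 5416 bases further downstream summed to 11.27 and 23.32 TPM, or 37.02% and 52.94% of the gene's TPM. In estimated counts, which do not weight short models up, this internal group held 31.8% and 40.6%. Most of the greater TPM of Nfe2l1 in replicate 2 thus lay in the internal group. The mean length that the tables use for Nfe2l1, after fragment size is allowed for, was 3922 bases in replicate 1 and 3302 in replicate 2. With Nfe2l1-205 left out, Nfe2l1 stood at 30.45 and 36.66 TPM, a ratio of 1.20 in place of 1.45.

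In Mafg all coding models have 162 codons, so their shares do not change the protein. Mafg-204, of 1104 bases, led with 58.94% and 44.89% of TPM, and Mafg-201, of 4923 bases, held 37.19% and 34.37%. In estimated counts Mafg-201 held the most, 75.4% and 74.2%. Mafg-203, of 840 bases, had 46.03 and 329.59 counts and held 2.55% and 20.24% of TPM. With Mafg-203 left out, Mafg stood at 42.86 and 41.66 TPM, so the ratio of replicate 2 to replicate 1 fell from 1.19 to 0.972. The higher level of Mafg than of Mafk in replicate 2 was then 41.66 against 41.23 TPM. Mafg-203 and Mafg-204 belong to the same group of annotated starts, which summed to 27.17 and 34.03 TPM. Mafg-204 itself stood at 25.92 and 23.45 TPM. Reads are split between these models by estimate, so leaving out Mafg-203 alone may drop reads of Mafg-204.

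**Figure D3:**
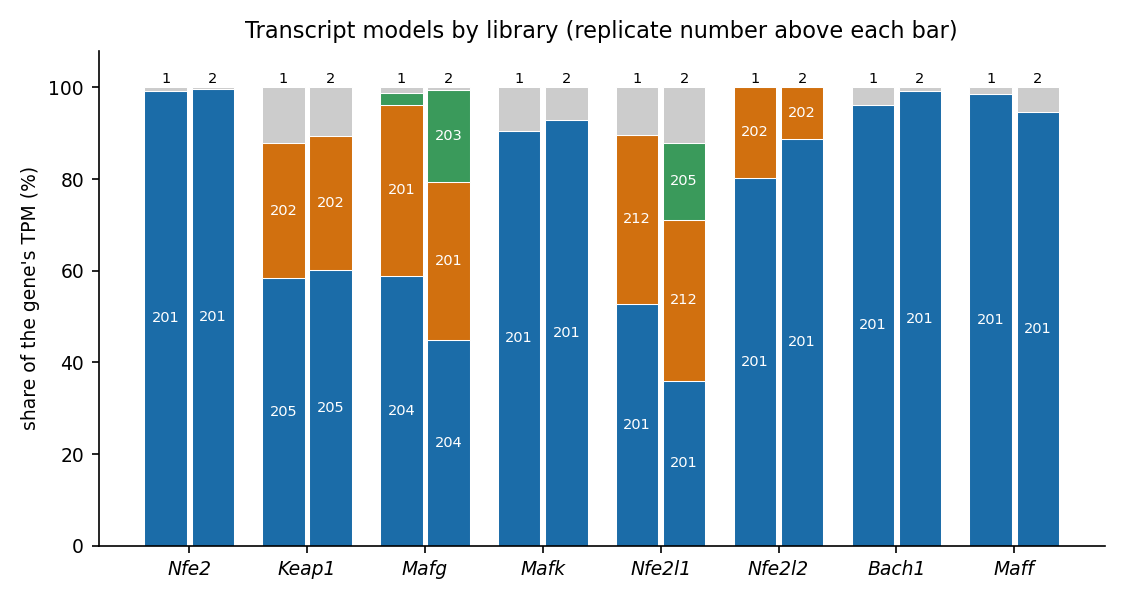
Share of each gene's TPM in percent held by its transcript models, with a bar for each library (replicate number above it), model numbers on the segments and models under 10% in both libraries in grey. Nfe2, Mafk, Maff and Bach1 are each held by 1 model, while the shares of model 205 of Nfe2l1 and model 203 of Mafg are larger in replicate 2.

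The 2 Nfe2l1 starts have different sequences before them, shown from RefSeq promoters (GRCm38.p6) where they lie outside annotated exons of the gene. The first ends at the start of Nfe2l1-201, minus strand, chr11:96829969-96830218. The second ends at the shared start of Nfe2l1-212 and Nfe2l1-205, minus strand, chr11:96824128-96824295. Capitals mark CACCC, the letters bound by the erythroid factor KLF1, read on the other strand.
Nfe2l1 upstream start: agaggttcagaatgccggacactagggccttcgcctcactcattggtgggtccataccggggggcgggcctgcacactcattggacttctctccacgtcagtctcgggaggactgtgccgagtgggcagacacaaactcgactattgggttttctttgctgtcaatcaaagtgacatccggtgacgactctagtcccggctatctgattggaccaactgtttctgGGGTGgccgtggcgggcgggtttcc
Nfe2l1 internal start: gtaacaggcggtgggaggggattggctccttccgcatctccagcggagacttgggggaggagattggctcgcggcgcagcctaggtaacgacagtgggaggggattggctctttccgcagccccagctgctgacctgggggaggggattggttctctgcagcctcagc
The first holds 1 such match, 25 bases before the start, and the second holds none in the stretch shown. A match lies 11 bases past the second start, so the full windows of both starts hold 1 each.

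Promoter windows, from 250 bases before to 50 after a start, were found for 9 of the 10 genes, with 15 windows in all and none for Nfe2. Motifs were searched on both strands as letters. AGATAA, the GATA motif, was in 2 windows, 128 bases before the Keap1 start and 211 before a Maff start, and 11.2% of all 32851 windows held it. TGACNNNGC, the core of the antioxidant response element, was in 4 windows, and 12.4% of all windows held it. Its matches were TGACTCCGC in Nfe2l2, 240 bases before the start, and TGACTCTGC in Maff, 112 bases before. On the other strand it was found as GCACGGTCA in Mafg, 222 bases before the start, and as GCGGTGTCA in Mafk, 13 bases before. These distances run to the start of the window, which can differ from that of a transcript model. The Mafk window starts at 139791536 but Mafk-201 at 139791513, so that match lies within the first exon of Mafk-201. The Maff matches of both motifs precede a start at 79346621, while Maff-201 and Maff-202 start at 79347520 and 79348064. TGANTCA, the core shared by NFE2 and AP-1 sites, whose letters can overlap with those of TGACNNNGC, was in 0 of the 15 windows and in 7.81% of all. CACCC was in 11 windows of 5 genes and in 57.5% of all windows. Some Nfe2l1 windows overlap, so 1 match can count in more than 1 of them. The windows of these genes had 50.3% to 69.7% GC, beside a median of 52.7% over all windows. A match of letters is not a bound site, and no binding was measured here.

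Between the libraries, 5 of the 8 genes tested differed beyond counting error, against 69.1% of the 10863 genes tested. Nfe2l1, Nfe2l2, Mafg and Bach1 had higher scaled counts in replicate 2, where 34.7% of all genes did. Mafk was higher in replicate 1, where 34.4% of all genes were. The share called among these genes is thus near the background. The test was an exact two-sided binomial test of 1 library against the other, adjusted by Benjamini-Hochberg over all genes tested. It compares libraries, not conditions, and leaves out spread between cultures. With an added coefficient of variation of 0.1 it called 0 of the 8 genes, 1 of which had an unadjusted p under 0.05, and 18.5% of all genes. Scaled by library totals it called 7 of the 8, with Nfe2 and Keap1 added, and 72.0% of all genes.

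Nfe2l2 had the greatest difference, with a log2 ratio of replicate 2 over replicate 1 of 0.44 in scaled counts (adjusted p = 1.68e-15, exact binomial test). Nfe2l1 followed at 0.38 (7.62e-52), Bach1 at 0.35 (1.24e-12), Mafg at 0.25 (3.38e-20) and Mafk at -0.14 (3.88e-07). Nfe2, Keap1 and Maff were at -0.03, -0.02 and -0.07, with adjusted p = 0.172, 0.324 and 0.566 in the same exact test. Of all genes tested, 94.9% had a larger absolute log2 ratio than Nfe2 and 96.5% a larger one than Keap1. The median absolute log2 ratio over all genes tested was 0.30, so Mafg and Mafk also lay within the usual spread of these libraries.

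**Figure D4:**
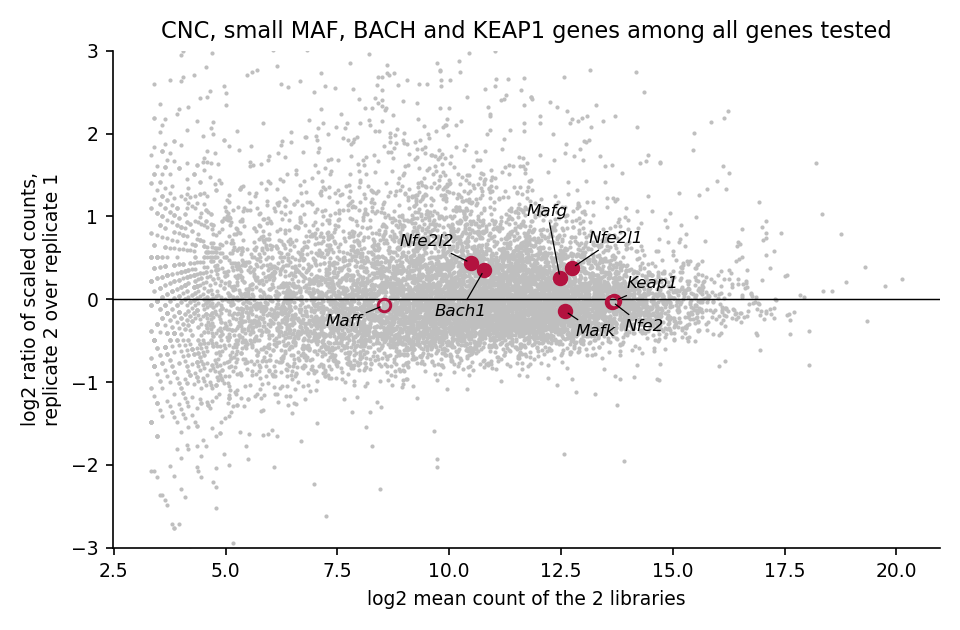
Log2 ratio of scaled counts, replicate 2 over replicate 1, against the log2 mean count for each gene tested (grey), with the 8 tested genes in red, filled where the adjusted p was under 0.05. The red points lie inside the grey cloud, and 81 of the 10863 genes fall outside the plotted range of the vertical axis.

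Reads from neighbours could touch 3 of the genes. Mafg overlaps Sirt7 by 124 bases on the same strand, and Sirt7 stood at 169.36 and 109.34 TPM. Stretches of 31 bases shared with other genes made up 1.68% of Mafg. Mafk overlaps Tmem184a by 169 bases on the opposite strand, with 3.60% of its stretches shared, and Tmem184a had 179 and 112 counts. Keap1 overlaps the antisense gene Gm16754 by 3317 bases, with 9.02% shared, and Gm16754 had 1 and 0 counts. The sources used here do not say whether counting used strand, so reads of the overlapping opposite strands cannot be told apart.

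Genes that act with these factors were described by lists, to be read beside the 39.0% of all protein-coding genes that were detected. The erythroid partners of the globin loci stood well above Nfe2, with a median of 688 TPM, from Tal1 at 239 TPM to Gata1 at 1964 TPM on average, with Ldb1 at 725 and Zfpm1 at 690 TPM. Of the 6, 1 was called higher in replicate 2 and 5 in replicate 1 (34.7% and 34.4% of all genes tested). These calls, like those of the lists that follow, hold counting error alone. Of the large MAF genes, relatives with an activation domain, Maf had no count, Mafa had 5 and 0 counts and Nrl 1 and 0. AP-1 and ATF relatives, which bind related sites, were 7 of 14 detected, led by the stress-response factor genes Atf5 at 552 TPM and Atf4 at 124 TPM and by Jund at 114 TPM, and Batf had no count. Of the 9 of them tested, 2 were called higher in replicate 2 and 4 in replicate 1 (34.7% and 34.4% of all genes tested).

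The machinery around KEAP1 and NRF2 turnover was detected in full, 13 of 13 matched genes, with a median of 24.2 TPM. Gsk3a, a kinase that marks NRF2 for removal, stood at 178 TPM, Sqstm1, whose product p62 binds KEAP1, at 95.5 TPM and Dpp3, which also binds KEAP1, at 45.4 TPM. Btrc, a ligase adaptor for NRF2, was lowest at 2.96 TPM. The scaffold of the KEAP1 ligase, Cul3, stood at 18.06 and 12.56 TPM and its ring subunit Rbx1 at 6.46 and 18.56 TPM, so Keap1 was above both. Of these 13 genes, 5 were called higher in replicate 2 and 6 in replicate 1 (34.7% and 34.4% of all genes tested).

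Genes for NRF1 processing were 6 of 7 detected, with a median of 24.5 TPM. Vcp, which pulls NRF1 from the membrane, stood at 365 TPM, and Syvn1 and Sel1l, of the endoplasmic reticulum ligase, at 96.5 and 46.0 TPM. Ddi1 had no count, while Ddi2, the protease that cuts NRF1, stood at 10.60 and 19.88 TPM. Of the 6 tested, 1 was called higher in replicate 2 and 4 in replicate 1 (34.7% and 34.4% of all genes tested). All 33 proteasome genes, known targets of NRF1, were detected, with a median of 50.2 TPM, led by Psmb4 at 427, Psmc4 at 337 and Psmd3 at 256 TPM. Psmc6 was lowest at 2.50 TPM. Of the 33, 17 were called higher in replicate 2 and 14 in replicate 1 (34.7% and 34.4% of all genes tested).

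Haem control genes that bear on BACH1 were 8 of 8 detected, with a median of 9.79 TPM. Rbck1, a ubiquitin ligase gene, stood at 259 TPM, the haem transporter Slc48a1 at 167 TPM and the haem exporter Flvcr1 at 20.2 TPM. Hmox2, a haem oxygenase, was lowest at 1.70 TPM. Hmox1, the best known gene that BACH1 represses, stood at 6.02 and 7.40 TPM, close to Bach1 itself. Of the 8 genes, 6 were called higher in replicate 2 and 1 in replicate 1 (34.7% and 34.4% of all genes tested).

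Antioxidant response genes, targets of NRF2 and BACH1, were 24 of 35 detected, with a median of 7.77 TPM, so the list was uneven. The ferritin genes Fth1 and Ftl1 led at 17424 and 12465 TPM, followed by the biliverdin reductase gene Blvrb at 1028 TPM. Gclm, a subunit of the enzyme that begins glutathione synthesis, stood at 684 and 541 TPM. Nqo1, a much used marker of NRF2 activity, was below detection at 0.50 and 0.27 TPM. Aldh3a1, Cbr3, Ephx1, Gpx2 and Gsta1 had no count. Of 26 tested, 12 were called higher in replicate 2 and 6 in replicate 1 (34.7% and 34.4% of all genes tested).

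Genes of platelets and red cells that are known to hold NFE2 sites or to need NFE2 were 8 of 18 detected. This is near the 39.0% of all protein-coding genes, and the median of the list was 0.845 TPM. The globin genes Hba-a1, Hbb-bs and Hba-a2 led at 7841, 7588 and 3358 TPM, though reads of near-identical globin copies may be split between them. Casp12, Ehd3, Ppbp and Selp had no count, and Tubb1, the platelet tubulin gene that depends on NFE2, had 2 and 3 counts. Of 13 tested, 6 were called higher in replicate 2 and 2 in replicate 1 (34.7% and 34.4% of all genes tested).

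Markers of other lineages in which these factors act were mostly not detected, but neither were most protein-coding genes, of which 39.0% were detected. The part of these markers in the levels above was not tested. Megakaryocyte genes were 4 of 14 detected, Nbeal2 at 86.6, Gp1ba at 32.9, Itga2b at 23.7 and Treml1 at 2.31 TPM, with a median of 0.28 TPM and 3 genes without a count, Gp6, Ppbp and Selp. The summed level of that list was 135.73 and 160.09 TPM. Of its 8 tested genes, 5 were called higher in replicate 2 and 0 in replicate 1 (34.7% and 34.4% of all genes tested). B cell genes were 2 of 8 detected, Xbp1 at 31.1 and Prdm1 at 7.37 TPM, with a sum of 43.12 and 33.97 TPM. Cd79a was next with 3 and 3 counts, and Pax5, Cd79b, Ms4a1 and Ebf1 had no count. Of the 2 tested, 1 was called higher in replicate 2 and 1 in replicate 1 (34.7% and 34.4% of all genes tested). Granulocyte and macrophage genes were 1 of 11 detected, Cd68 at 1.19 TPM, with a sum of 1.28 and 1.86 TPM. Next were Prtn3, with 0 counts in replicate 1 and 10 in replicate 2, and Mpo, with 2 and 19. Ctsg, Lyz2, Itgam, Adgre1 and Ly6g had no count. Of the 2 tested, 1 was called higher in replicate 2, which was Mpo, and 0 in replicate 1 (34.7% and 34.4% of all genes tested).

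**Figure D5:**
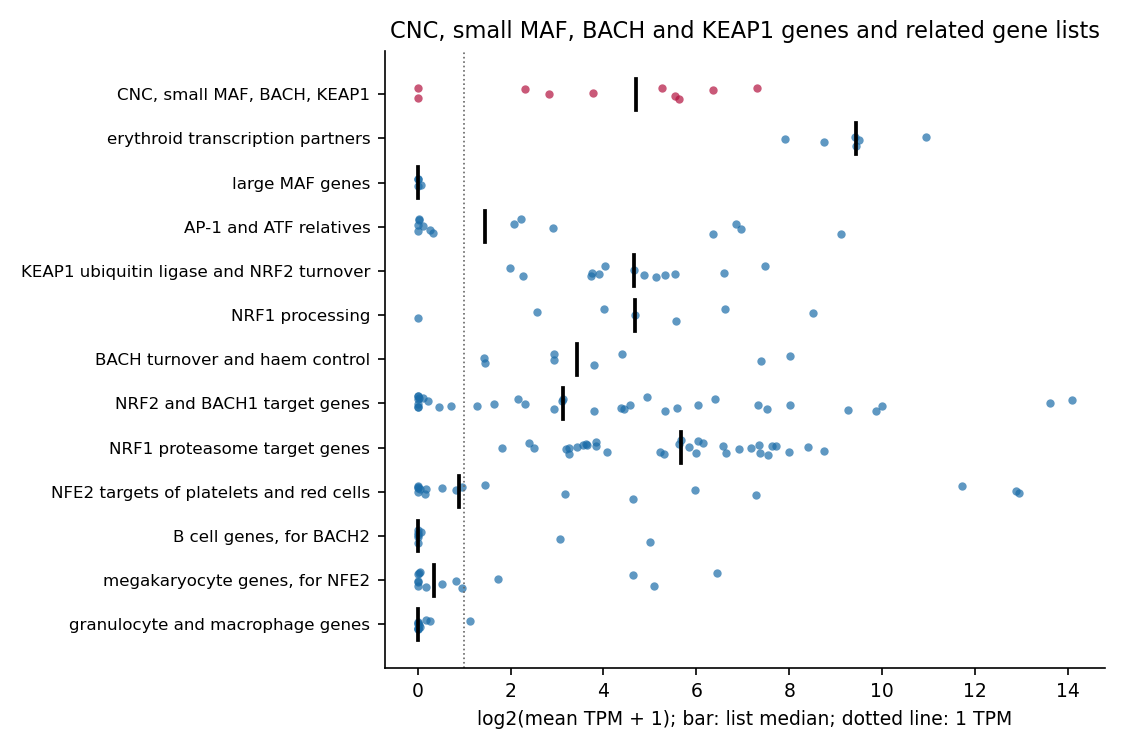
Mean level of each gene as log2(mean TPM + 1), by list, with a black bar at the list median and a dotted line at 1 TPM. The CNC, small MAF, BACH and KEAP1 genes (red) spread from 0 to 157 TPM, all below the erythroid partners. Their median lies below the medians of the erythroid partner and proteasome lists and above those of all other lists. Single genes of the B cell, megakaryocyte, and granulocyte and macrophage lists overlap with them, such as Nbeal2 at 86.6 TPM.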

How the data were processed

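Polyadenylated RNA of G1E-ER4 cells was measured in 2 libraries of 1 group, grouped by their labels. Expected counts and posterior mean counts are estimated counts, with fractions of a read, per the file headers. TPM, posterior mean TPM and FPKM were deposited by the authors, as was the share of each transcript as a percent of the gene's TPM. The build is mm10 and the annotation M4, per the labels and file headers. The sources used here name no aligner or quantifier and do not give the use of strand. GENCODE M21, of the same build, gave names, classes and coordinates, matched for 42462 of 43346 genes. Rows for spike-ins and numeric identifiers were left out.

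Expected counts were rounded and scaled by TMM in edgeR 4.0.16 (R 4.3.3). Genes averaging at least 10 counts were tested between the libraries by an exact two-sided binomial test (scipy 1.17.1, Python 3.11.15) at an adjusted p of 0.05, and the test was tested on simulated data. Alternatives were DESeq2 1.42.0 size factors, library totals, other filters, posterior mean values, FPKM and an added coefficient of variation of 0.1. Estimated counts of the 8 genes with counts ran from 298 (Maff) to 15703 (Keap1) per library, so counting error is greatest for Maff.

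The genes and the 12 lists, with 163 symbols of which Skp1 found no match, were chosen with earlier results of these data known. The text names all 10 genes, their transcripts at 10% or more of TPM, the 3 highest and the lowest of each list, and other-lineage markers at 1 TPM or more in both libraries. Other list genes, such as Cul3, Rbx1, Ddi2, Hmox1, Gclm, Nqo1, Tubb1 and Alas2, were chosen after their values were seen. Some list genes are not reported here.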

Additional observations from a re-analysis of the deposited data

How the results depend on the processing

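Leaving out a library was used as values with no test, since 1 library remains. Mafk over Mafg was 1.13 without replicate 2 and 0.789 without replicate 1, so the order of the 2 genes turns. With an added coefficient of variation of 0.1 in the binomial test, 0 of the 8 genes tested and 18.5% of all genes were called. Of the 8, 1 had an unadjusted p under 0.05. With DESeq2 size factors 5 of the 8 were called, and 68.9% of all genes. Library totals moved the median log2 ratio of all genes to -0.12 from -0.01. They called 7 of the 8 genes, 4 higher in replicate 2 and 3 in replicate 1, and 72.0% of all genes. Nfe2 and Keap1 (each at -0.13) were added. With no filter on counts 6 of the 8 were called, and 48.5% of the 15567 genes then tested. Nfe2 was added at an adjusted p of 0.0229 in the exact test. With a minimum of 5 TPM, 7 of the 10 genes were detected. TPM of Nfe2l1 and Mafg without a short model was computed after seeing the data. Depth limits Nfe2l3 and Bach2. Their posterior mean TPM averaged 0.055 and 0.31 with no count behind it. No paired analysis was possible because the libraries form 1 group.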
